A study of Mus musculus with 138 samples.

Results

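Wnt ligands and R-spondins are secreted proteins, and the 10 genes described here code for 7 Wnt ligands (Wnt2, Wnt4, Wnt5a, Wnt5b, Wnt10b, Wnt11 and Wnt16) and 3 R-spondins (Rspo1, Rspo2 and Rspo3). They were taken by name from the 55487 genes of the count files, with earlier results of these data known. All 10 were among the 19768 genes that passed the filter on low counts. The libraries come from wild-type C57BL/6J mouse embryos at the embryonic stages E16.5 and E18.5, with no mutant allele and no treatment. At 4 sutures of the skull vault (coronal, frontal, lambdoid, sagittal), laser capture separated the suture mesenchyme (SM), the unossified tissue between 2 bones, from the osteogenic fronts (OF) at the bone edges. The fronts are those of the frontal (FR), parietal (PA) and interparietal (IP) bones: FR and PA at the coronal suture, FR at the frontal, IP and PA at the lambdoid and PA at the sagittal. With SM this gives 20 groups of 5 first libraries, 100 in all, in which the regions of a suture with the same replicate number share a litter label. A second library carries the label of 3 samples of each coronal group, 16 further libraries come from complete sutures at E18.5, and 4 single-cell libraries hold pooled coronal sutures, 2 at each age.

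Wnt ligands are lipid-modified glycoproteins that bind Frizzled receptors on nearby cells. With the co-receptors LRP5 and LRP6 this stabilises beta-catenin, which with TCF/LEF factors turns on target genes, while other Wnts, Wnt5a and Wnt11 among them, are best known for signalling that does not need beta-catenin. R-spondins bind LGR receptors and the E3 ligases ZNRF3 and RNF43, which otherwise remove Frizzled receptors from the cell surface, and so they raise the response to Wnts. In bone, beta-catenin signalling drives mesenchymal cells towards the osteoblast fate, and Wnt10b promotes bone formation.

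The first libraries held between 7305627 and 34518477 counted read pairs. The coronal libraries were the deepest, with medians of 26943759 at E16.5 and 22696696 at E18.5 against 8598662 to 15519560 in the other sutures and ages. The dates in the litter labels differ between most libraries of different sutures, with a few dates shared, and between all libraries of different ages, and the sources used here give no sequencing batch. Differences in level between sutures or ages therefore cannot be told apart from those between dates. The tests below compare regions within a suture, ages within a suture, and the SM less OF difference of a suture with that of the others. The summed level of 10 osteoblast markers (Ibsp, Sp7, Bglap and others) was 24.3, 126 and 693 CPM (counts scaled to a library of 1000000 read pairs) at its lowest, median and highest over the 40 SM libraries and 1882, 7121 and 21562 CPM over the 60 OF libraries, so that the labelled regions did not overlap in these markers. Of the 10 markers, 9 were lower in SM and none was higher. Fewer cells of a type and less RNA per cell cannot be told apart in these libraries, here and in all results on the captured tissue. Levels of single genes in the first libraries are CPM after a further scaling factor per library (TMM, 0.495 to 1.297). The exceptions are those given as CPM of the total count. The highest Wnt10b level of the coronal FR at E16.5, for example, is 65.5 CPM with this factor and 46.7 CPM of the total count.

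The start regions are printed for Wnt10b and Wnt11, which differed between the regions in opposite directions, and for Rspo1, the member with the highest level, to show the sequence that lies upstream of each. The RefSeq promoter table (GRCm38.p6, the mm10 build of the count files) held 7 of the 10 members, and Wnt5a, Rspo2 and Rspo3 had no entry. Each line gives the 250 bases before the start of the gene, 5′ to 3′ on the strand of the gene. Wnt10b lies on the minus strand of chromosome 15 and its stretch is chr15:98778151-98778400. Wnt11 lies on the plus strand of chromosome 7 and its stretch is chr7:98834862-98835111. Rspo1 lies on the plus strand of chromosome 4 and its stretch is chr4:124986180-124986429, inside the span of the antisense gene Gm12930. Capitals mark a match to the motif of TCF/LEF factors, the partners of beta-catenin, here read on the other strand.
Wnt10b: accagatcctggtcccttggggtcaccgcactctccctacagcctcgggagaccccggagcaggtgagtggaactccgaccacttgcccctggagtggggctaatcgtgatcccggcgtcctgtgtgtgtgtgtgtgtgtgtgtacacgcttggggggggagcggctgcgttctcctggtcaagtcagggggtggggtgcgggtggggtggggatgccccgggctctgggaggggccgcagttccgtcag
Wnt11: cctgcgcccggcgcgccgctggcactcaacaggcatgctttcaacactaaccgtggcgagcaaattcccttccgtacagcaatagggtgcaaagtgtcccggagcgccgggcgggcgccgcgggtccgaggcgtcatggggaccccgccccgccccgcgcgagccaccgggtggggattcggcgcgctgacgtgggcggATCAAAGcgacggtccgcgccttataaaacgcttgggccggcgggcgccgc
Rspo1: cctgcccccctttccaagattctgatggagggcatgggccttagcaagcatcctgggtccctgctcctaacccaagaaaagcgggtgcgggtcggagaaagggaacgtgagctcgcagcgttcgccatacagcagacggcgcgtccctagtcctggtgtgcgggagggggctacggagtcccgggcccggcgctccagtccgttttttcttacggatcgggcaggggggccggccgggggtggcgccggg
The motif searched was CTTTGAT or CTTTGAA on either strand, and 7.48% of 32851 promoters of 250 bases hold at least 1 match. Among the 10 starts of the 7 members, the Wnt11 start printed above and 1 further start of Wnt5b hold one. The motif of the osteoblast factor RUNX2 (TGTGGT, in 14% of promoters) and that of GLI factors (TGGGTGGTC, in 0.225%) were found in none of the members' starts. A match is a description of letters, and no match says only that these letters are not in this window.

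Levels of different genes are compared as CPM per kilobase of exon. By the median of its 20 group medians, Rspo1 was the highest member at 11.3 CPM per kb, followed by Wnt10b at 5.43, Wnt5a at 2.89 and Rspo3 at 2.72. Wnt5b stood at 1.2, Wnt2 at 1.08, Wnt11 at 1.05 and Rspo2 at 0.422 CPM per kb. Wnt16 at 0.120 and Wnt4 at 0.114 CPM per kb were the lowest. Wnt4 reached 1 CPM in 28 of 100 libraries and Wnt16 in 35, whereas Wnt5a and Rspo1 reached it in all 100. In the order of the 20 group medians of a gene, the ranges of neighbours overlapped almost throughout, in 19 of 19 neighbouring pairs for 7 genes, 18 for Rspo2 and Wnt2, and 16 for Wnt11. The order itself is therefore resolved only between groups that lie far apart in it.

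In the mean of SM less OF over 4 sutures and 2 ages, 6 of the 10 members passed the test, 3 higher in SM (Rspo3, Rspo2 and Wnt11) and 3 lower (Wnt10b, Rspo1 and Wnt5a). In the same contrast 54.9% of all genes tested passed, 27.6% higher and 27.4% lower in SM. Of the genes called, 50.2% were higher in SM, and 62.1% when libraries were scaled to total counts. The members' share is thus near the background, and what follows describes the size, the suture and the age of each gene's difference. The median of the 10 log2 differences was 0.20, and that of all genes 0.05. The test was edgeR's quasi-likelihood test with the litter label as a block and Benjamini-Hochberg adjustment over 19768 genes, at an adjusted p of 0.05. The SE given with a log2 difference was not estimated by the fit. It is the size of the difference divided by the square root of the test's F statistic. The intervals given with log2 differences rest on this SE, and both are approximate.

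**Figure D1:**
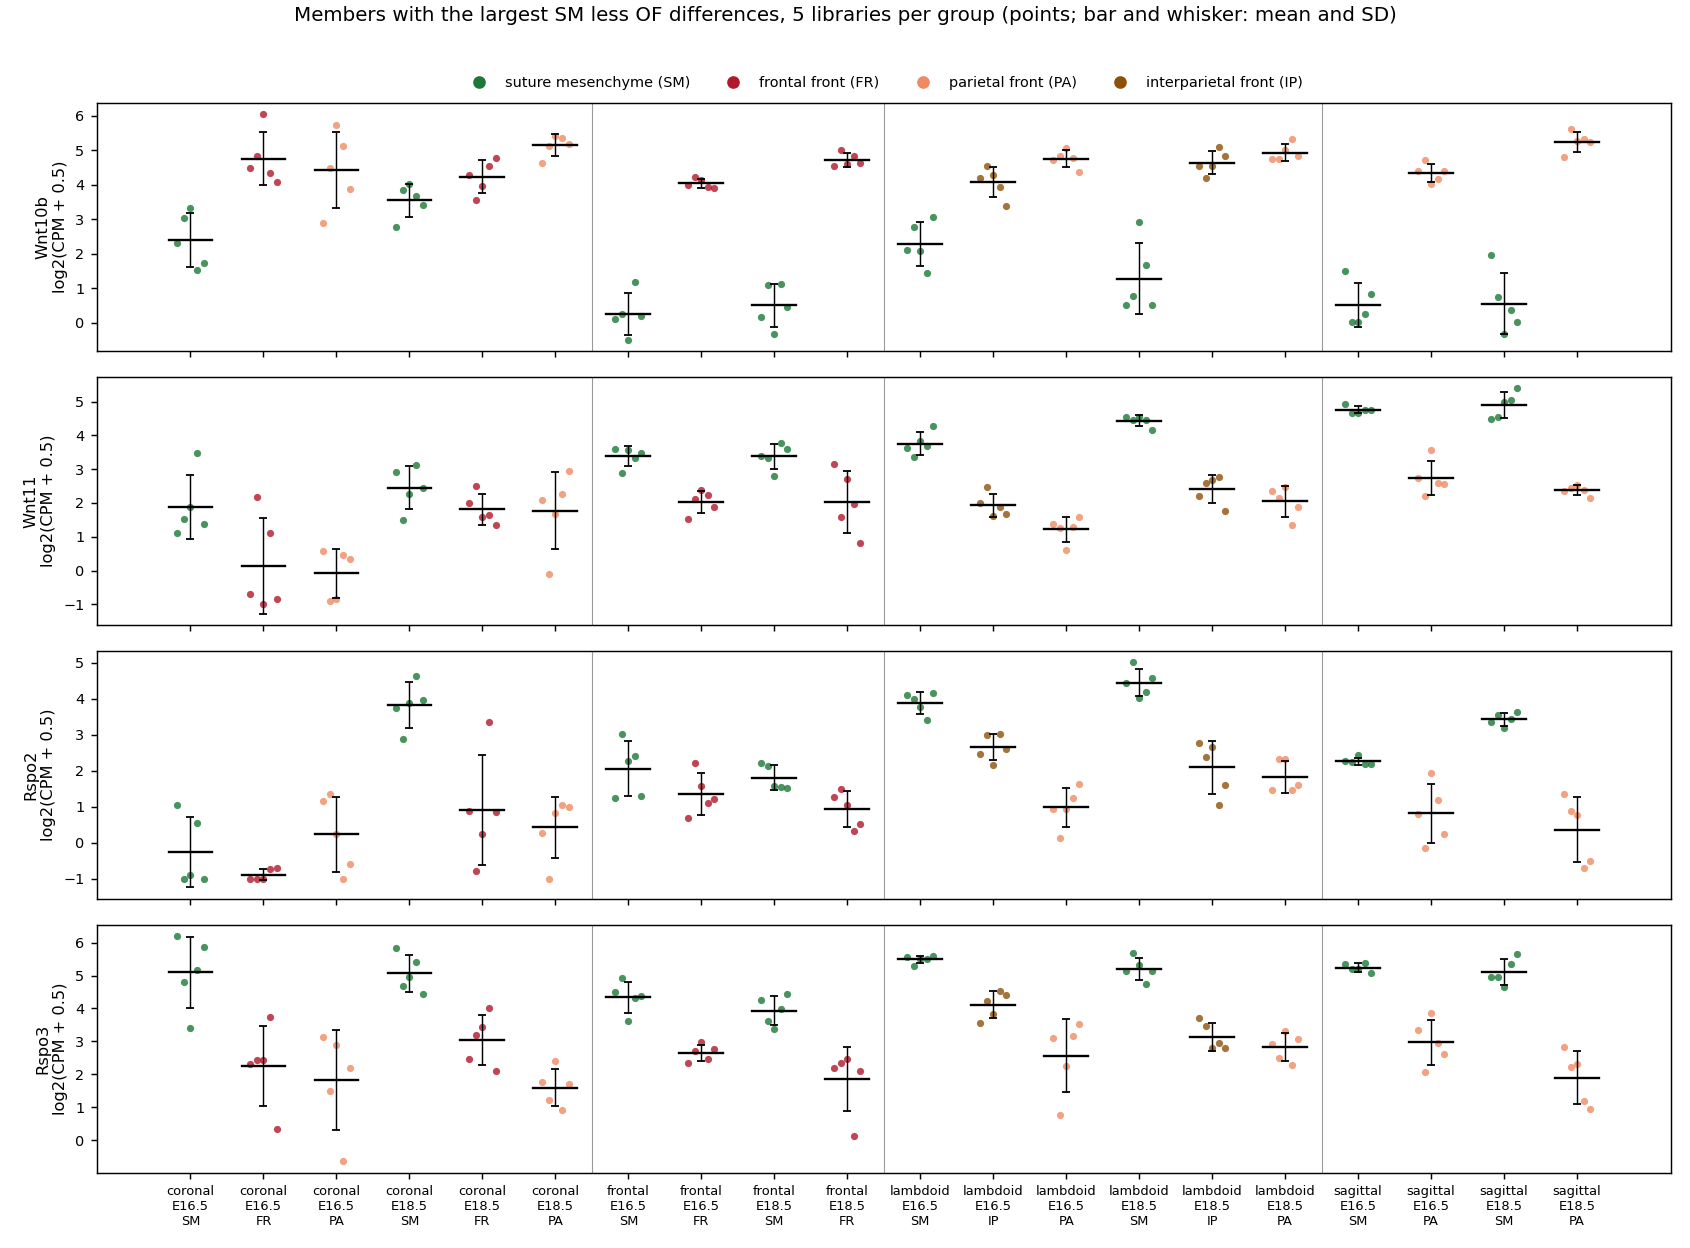
Level of Wnt10b, Wnt11, Rspo2 and Rspo3 as log2(CPM + 0.5) in the 20 captured groups of 5 libraries, with the mean and SD of each group. Green points are SM and red to brown points the fronts. Outside the coronal suture all Wnt10b points of SM lie below and all Rspo3 points above those of the fronts of the same suture and age, while the coronal groups at E16.5 hold Rspo2 near 0.

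Wnt10b, a ligand that acts through beta-catenin, had the largest mean difference in size. It lay at 0.214, 1.73 and 15.8 CPM (lowest, median, highest) in the 40 SM libraries and at 6.92, 23.8 and 65.5 CPM in the 60 OF libraries. In the sagittal suture at E18.5 the SM libraries held 3.38, 1.17, 0.294, 0.781 and 0.508 CPM and the PA libraries 27.2, 48.4, 37.9, 39.3 and 37.2 CPM. Every PA library was above every SM library there, and the same held in 10 of the 12 comparisons of SM with a front. SM was the lower of the same-litter pair in 58 of 60 pairs. The mean difference was -3.52 on the log2 scale (SE 0.14), or 11.5-fold lower in SM, with an adjusted p of 1.59e-30 by edgeR. Wnt10b passed the test in 11 of the 12 comparisons, at log2 differences of -1.60 to -5.27. The exception was SM against FR in the coronal suture at E18.5, where SM held 6.37, 13.7, 15.8, 12.3 and 10.1 CPM and FR 19.1, 11.3, 15.2, 22.6 and 26.9 CPM. Those ranges overlap, and the difference was -0.73 (95% interval -1.45 to -0.02, edgeR adjusted p = 0.364). Wnt10b moved with the osteoblast markers given above, and their part in its difference was not tested.

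The SM less OF difference of Wnt10b itself differed between sutures. It was smaller in size in the coronal suture than in the other 3 by 2.37 (SE 0.27, edgeR adjusted p = 5.72e-10). It was larger in size in the frontal suture, by -1.44 (SE 0.34, edgeR adjusted p = 0.00345, and adjusted p = 0.0675 by limma-voom), and in the sagittal suture, by -1.74 (SE 0.33, edgeR adjusted p = 0.000291). The coronal SM libraries held 2.40 to 15.8 CPM of Wnt10b, the frontal SM libraries 0.214 to 1.77 CPM. The summed osteoblast markers of these SM groups moved alike, with medians of 419 and 429 CPM in the coronal and 105 and 81.1 CPM in the frontal suture, and their part was not tested.

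Wnt11, a ligand best known for signalling without beta-catenin, was higher in SM. Its levels were 1.67, 11.8 and 41.7 CPM (lowest, median, highest) in SM and 0, 3.45 and 11.3 CPM in OF. At the sagittal suture at E16.5 the SM libraries held 29.9, 25, 24.9, 26.3 and 26.4 CPM and the PA libraries 6.15, 4.14, 11.3, 5.49 and 5.43 CPM. The groups did not overlap, as in 8 of the 12 comparisons, and SM was the higher of the pair in 57 of 60 pairs. The mean difference was 1.93 (SE 0.18), or 3.81-fold, with an adjusted p of 3.79e-14 by edgeR. Wnt11 passed in 8 comparisons: both coronal ones at E16.5, all 4 lambdoid ones and both sagittal ones. The call of coronal SM less FR rested on replicate 3 (1.68 without it, edgeR adjusted p = 0.0738), and that of lambdoid SM less IP at E16.5 on replicates 4 and 5 (2.05 and 1.84 without them, edgeR adjusted p = 0.0577 and 0.0542). In the frontal suture the differences had the same sign without passing, for example 1.46 at E16.5 (95% interval 0.40 to 2.53, edgeR adjusted p = 0.0864), with SM libraries at 6.90 to 11.7 CPM and FR libraries at 2.41 to 4.71 CPM. The frontal difference at E16.5 passed in 6 of the alternatives run, among them DESeq2, limma-voom and the suture and age fitted by itself (1.43 to 1.62, adjusted p = 0.000139 to 0.0261 by edgeR, DESeq2 or limma-voom), and that at E18.5 in 3 (1.41 to 1.46, adjusted p = 0.0218 to 0.034 by edgeR or DESeq2). Coronal SM less PA at E18.5 passed with the second coronal libraries (1.2, edgeR adjusted p = 0.0333). A gene on the other strand, Gm8398, shares 364 exonic bases with Wnt11, and the counting did not use strand.

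Wnt5a, the best known ligand of the route without beta-catenin, showed a small mean difference. It lay at 1.36, 20.4 and 47.9 CPM in SM and 7.39, 25.6 and 52.7 CPM in OF, and the mean difference was -0.20 (SE 0.09, 1.15-fold lower in SM, edgeR adjusted p = 0.0388). Without the coronal suture at E16.5, a setting added after the data were seen, it was 0.054 (edgeR adjusted p = 0.443). The call was also lost when the litter block was dropped (-0.18, edgeR adjusted p = 0.0689), when scaled to total counts (-0.09, edgeR adjusted p = 0.423) and without replicate 1, 3 or 4 (-0.11, -0.18 and -0.18, edgeR adjusted p = 0.144 to 0.168). It was lost as well with median-ratio scaling (-0.14, edgeR adjusted p = 0.163), with the filter of filterByExpr (-0.19, edgeR adjusted p = 0.0631) and with DESeq2 (-0.14, adjusted p = 0.139). In the coronal suture at E16.5 the SM libraries held 1.36, 12.2, 7.98, 6.51 and 18.3 CPM, the FR libraries 27.4, 22.6, 28.4, 28.6 and 39.0 CPM and the PA libraries 40.7, 22.3, 21.6, 36.8 and 22.4 CPM. All 5 SM libraries were below all 10 OF libraries. The second libraries of this suture and age overlapped, given here as CPM of the total count. They held 7.74, 8.24 and 16.1 CPM in SM, 11.3 to 15.5 CPM in FR and 13.4 to 15.8 CPM in PA. In the first libraries the differences there were -1.75 (SE 0.27) against FR and -1.79 (SE 0.28) against PA, with edgeR adjusted p of 8.15e-07 and 5.71e-07. With the suture and age fitted by itself the differences were -1.78 and -1.79 with edgeR adjusted p of 0.0656 and 0.0512. None of the other 10 comparisons passed. With the second coronal libraries SM less PA of the coronal suture at E18.5 passed (-0.997, edgeR adjusted p = 0.00018). With the suture and age fitted by itself SM less PA of the lambdoid suture passed, higher in SM, at E16.5 (0.40, edgeR adjusted p = 0.00486) and E18.5 (0.41, edgeR adjusted p = 0.0332). The SM less OF difference of the coronal suture was lower than that of the other sutures by -0.82 (SE 0.19, edgeR adjusted p = 0.00125). The highest levels of Wnt5a were in the lambdoid suture, with 40.6 to 52.5 CPM in the IP libraries at E18.5. Gm2670, on the other strand, shares 358 exonic bases with Wnt5a.

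Wnt5b, a close relative of Wnt5a, passed the test in none of the 12 comparisons. It lay at 0.484, 2.80 and 13.7 CPM in SM and 0.156, 3.46 and 14 CPM in OF, and SM was the higher of 30 of 60 pairs. The mean difference was -0.10 (95% interval -0.47 to 0.27, edgeR adjusted p = 0.687).

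Wnt2, a ligand that acts through beta-catenin, had group medians of 0 to 1.62 CPM in the captured coronal groups. The medians were 1.74 to 10.4 CPM in the frontal and lambdoid sutures and 0.974 to 2.89 CPM in the sagittal suture. Ranges overlapped in part, as for PA at E18.5 of the lambdoid (1.25 to 5.39 CPM) and coronal suture (0.485 to 2.65 CPM). Levels were not tested between sutures. In the frontal suture at E16.5 the SM libraries held 3.82, 8.82, 6.48, 8.11 and 5.47 CPM and the FR libraries 6.70, 8.53, 2.83, 7.02 and 6.19 CPM. The highest value, 32.2 CPM, was in an SM library of the lambdoid suture at E16.5 whose group held 17.7, 10.4, 9.16, 6.42 and 32.2 CPM. The same library held the highest sum of 7 hypodermis markers (Clec3b, Pi16, Dpp4 and others) of all 100, at 786 CPM against 85.2 to 332 CPM in the other 4 libraries of its group. All 4 of the markers that passed the test in the mean contrast were higher in SM, and their part in the level of Wnt2 was not tested. The mean difference of Wnt2 was 0.50 (95% interval -0.02 to 1.02, edgeR adjusted p = 0.104), 0.83 without replicate 3 (edgeR adjusted p = 0.0138) and 0.50 without the filter on low counts (edgeR adjusted p = 0.0317).

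By the main test Wnt2 passed in 1 of the 12 comparisons, SM less FR of the coronal suture at E16.5. All 5 FR libraries had 0 counts there, the SM libraries held 10, 14, 0, 1 and 11 counts, and the PA libraries 50, 17, 48, 0 and 0. Against a floor of 3 counts over 5 FR libraries, pooled SM levels were at least 10.7-fold higher and pooled PA levels at least 33.6-fold. These bounds cover counting error in the first libraries only, not the spread between libraries. edgeR gave an adjusted p of 0.00388 for SM less FR and 0.00256 for FR less PA, and its fitted folds are no bound because the FR libraries are at 0. These groups overlap library by library, since SM and PA also had libraries at 0. With the second coronal libraries in place of the first, neither passed. By edgeR, SM less FR was then 2.76 (adjusted p = 0.0844), and FR less PA had an adjusted p of 0.0524. The second FR libraries held up to 0.626 CPM of the total count and the second SM libraries 0.227 to 1.76 CPM. With limma-voom SM less FR did not pass either (2.81, adjusted p = 0.0704). Other comparisons passed under alternatives. SM less PA of the lambdoid suture at E16.5, higher in SM, passed in 4 (1.68 to 1.85, adjusted p = 0.000897 to 0.0378 by edgeR, DESeq2 or limma-voom). SM less PA of the coronal suture at E18.5, lower in SM, passed in 4 as well (-2.46 to -3.94, adjusted p = 0.00358 to 0.018 by edgeR, DESeq2 or limma-voom).

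Wnt4 and Wnt16, the members with the fewest counts, passed in none of the 12 comparisons nor in the mean contrast by the main test. Without the litter block both passed in the mean contrast, Wnt4 at -1.04 and Wnt16 at 0.82 (edgeR adjusted p = 0.00727 and 0.0205), and Wnt4 passed there also without replicate 5 (-1.26, edgeR adjusted p = 0.0131). Wnt4 lay at 0, 0.351 and 1.95 CPM in SM and 0, 0.570 and 13 CPM in OF, with a mean difference of -0.76 (95% interval -1.56 to 0.03, edgeR adjusted p = 0.105). Its highest value came from 1 FR library of the coronal suture at E16.5, with 225 counts where the other 4 had 38, 0, 3 and 0, and coronal SM less FR passed for Wnt4 without replicate 5 (-5.67, edgeR adjusted p = 0.0166) without the block (-5.06, edgeR adjusted p = 0.000529) and with DESeq2, at a smaller size (-2.93, adjusted p = 0.0176). Lambdoid SM less IP at E18.5 passed for Wnt4 with DESeq2 (-2.72, adjusted p = 0.0453). Wnt16 lay at 0, 0.810 and 6.92 CPM in SM and 0, 0.527 and 3.74 CPM in OF, with a mean difference of 0.69 (95% interval -0.06 to 1.43, edgeR adjusted p = 0.121). Its mean difference passed with DESeq2 (0.78, adjusted p = 0.03) and without the coronal suture at E16.5, the setting added after the data were seen (0.82, edgeR adjusted p = 0.0254), and SM less PA of the sagittal suture at E18.5 passed in 3 alternatives (2.38 to 2.58, adjusted p = 0.00633 to 0.049 by edgeR or DESeq2). Median counts per library were 7 for Wnt4 and 9 for Wnt16.

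**Figure D2:**
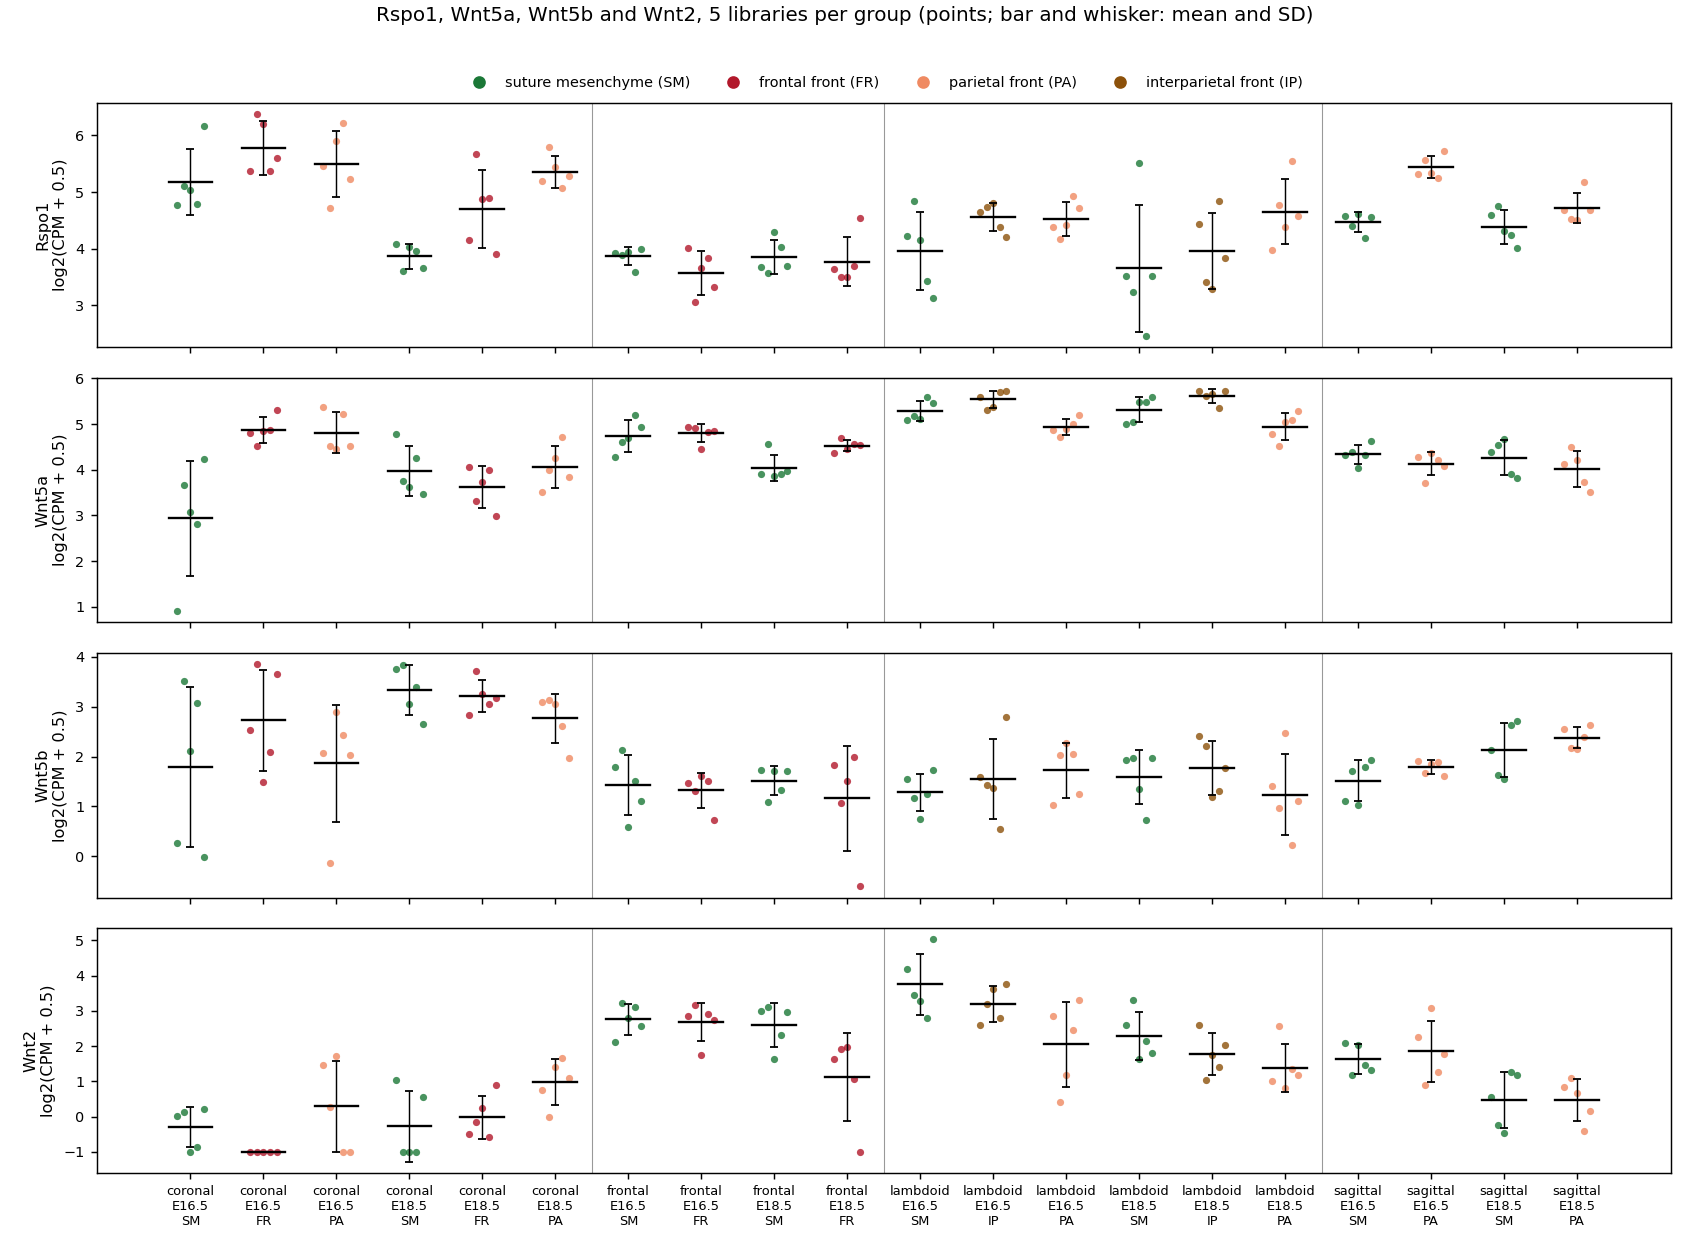
Level of Rspo1, Wnt5a, Wnt5b and Wnt2 as log2(CPM + 0.5) in the 20 captured groups, with the mean and SD of each group of 5 libraries. Regions overlap in most comparisons. At E16.5, coronal SM lies below both fronts for Wnt5a and sagittal SM below PA for Rspo1, as coronal SM does for Rspo1 at E18.5, and Wnt2 is near 0 in the coronal groups.

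Rspo3 was the R-spondin with the most regular difference. Its levels were 9.77, 33.8 and 73.3 CPM (lowest, median, highest) in SM and 0.138, 5.39 and 22.7 CPM in OF. In the sagittal suture at E18.5 the SM libraries held 30.4, 30.5, 24.5, 40.5 and 49.4 CPM and the PA libraries 6.64, 4.16, 4.5, 1.78 and 1.41 CPM. SM was the higher of the pair in 60 of 60 pairs, and the groups did not overlap in 11 of 12 comparisons. The mean difference was 2.49 (SE 0.17), or 5.62-fold, with an adjusted p of 1.50e-19 by edgeR. Rspo3 passed in 11 comparisons, at 1.78 to 3.64 on the log2 scale. In the remaining one, SM against IP in the lambdoid suture at E16.5, the SM libraries held 46.4, 38.5, 44.6, 45.0 and 47.8 CPM and the IP libraries 11.2, 18.3, 13.7, 22.7 and 20.7 CPM. The groups did not overlap there either, and the difference was 1.38 (95% interval 0.40 to 2.36, edgeR adjusted p = 0.0599), which passed in 8 of the alternatives run and not in 6. They include the fit without the litter block (1.36, edgeR adjusted p = 0.0331), DESeq2 (1.48, adjusted p = 0.0348) and limma-voom (1.40, adjusted p = 0.00296). The call of SM less FR was lost without replicate 1 in the coronal suture at E18.5 (1.71, edgeR adjusted p = 0.125), where it was lost also with the second libraries (1.46, edgeR adjusted p = 0.0532), and without replicate 1 or 2 in the frontal suture at E16.5 (1.70 and 1.64, edgeR adjusted p = 0.0958 and 0.0872). The 4 markers of ectocranial mesenchyme, the outer layer of the mesenchyme in the suture, were also all higher in SM, with summed levels of 268, 1320 and 2835 CPM in SM and 62.3, 662 and 2063 CPM in OF, and their part in the differences of Rspo3, Rspo2 and Wnt11 was not tested. Markers of other cell types were higher in SM too, given here with the medians of their sums in SM and OF. They were 7 of 9 of macrophages (170.2 and 113 CPM) and 4 of 7 of hypodermis (34.1 and 27.7 CPM). Of pericytes and smooth muscle 5 of 7 were higher and 1 lower (367 and 326 CPM). Of chondrocytes 5 of 8 tested were higher and 1 lower (404 and 132 CPM). Of dura mater 4 of 9 were higher (98.9 and 64.6 CPM), of erythroid cells 3 of 6 (667 and 280 CPM) and of mast cells 1 of 4 (121 and 20.5 CPM). Clec3b of hypodermis, Matn1 of chondrocytes and Mcpt4 of mast cells had fits with SE of 1044, 1188 and 6463. Such a fit decides nothing, and these genes count as not called. In the suture mesenchyme list 3 of 5 were higher and 1, Hhip, lower (1940 and 1284 CPM). The periosteal list had 2 of 4 higher and 2 lower (3675 and 3364 CPM). The part of these cell types was not tested either. Gm48159, on the other strand, shares 404 exonic bases with Rspo3.

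Rspo2 was higher in SM in the mean contrast and near 0 in all regions of the coronal suture at E16.5. Over all sutures it lay at 0, 7.28 and 32.1 CPM in SM and 0, 1.57 and 9.67 CPM in OF, with a mean difference of 2.12 (SE 0.23, 4.36-fold, edgeR adjusted p = 5.48e-12). In the lambdoid suture at E18.5 the SM libraries held 21.0, 32.1, 15.9, 17.7 and 23.3 CPM, above all IP libraries (1.59 to 6.39 CPM) and PA libraries (2.26 to 4.53 CPM). It passed in 8 of the 12 comparisons, and the groups did not overlap in 8. In the coronal suture at E16.5 the SM libraries held 31, 0, 1, 18 and 0 counts, the FR libraries 0, 0, 0, 2 and 2 and the PA libraries 39, 50, 12, 0 and 3. SM less FR passed there at 2.76 (SE 1.02, edgeR adjusted p = 0.0359) and FR less PA at -4.15 (SE 1.01, edgeR adjusted p = 0.00536), while SM less PA had the opposite sign, at -1.39 (95% interval -3.01 to 0.23, edgeR adjusted p = 0.196). These calls rest on few counts. SM less FR was lost without replicate 1, 3 or 4 (1.56, 2.91 and 2.46, edgeR adjusted p = 0.389, 0.0577 and 0.123), FR less PA without replicate 2 (-3.07, edgeR adjusted p = 0.0529), and SM less PA passed without replicate 4 (-2.54, edgeR adjusted p = 0.0202) and with DESeq2 (-1.54, adjusted p = 0.0498). With limma-voom SM less FR did not pass (1.77, adjusted p = 0.241). With the second coronal libraries SM less FR was 1.11 (edgeR adjusted p = 0.504) and FR less PA -0.77 (edgeR adjusted p = 0.764). In the sagittal suture at E16.5 the call of Rspo2 was lost without replicate 1, 2, 3 or 5 (1.48 to 2.15, edgeR adjusted p = 0.0553 to 0.171) and without the litter block (1.52, edgeR adjusted p = 0.121), and with total counts, filterByExpr or limma-voom (1.6 to 1.82, adjusted p = 0.0543 to 0.0605 by edgeR or limma-voom). SM less IP of the lambdoid suture at E16.5 passed with limma-voom (1.31, adjusted p = 0.0381) and fitted by itself (1.33, edgeR adjusted p = 0.000578), as did SM less FR of the frontal suture at E16.5 fitted by itself (0.83, edgeR adjusted p = 0.0329). At E18.5 the coronal SM libraries held 273, 154, 360, 518 and 340 counts, or 6.87 to 24.5 CPM. The FR libraries were then at 0.0867 to 9.67 CPM and the PA libraries at 0 to 1.58 CPM.

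Rspo1 was lower in SM by a smaller amount. It lay at 4.99, 16.2 and 71.7 CPM in SM and 7.80, 25.8 and 82.7 CPM in OF, with a mean difference of -0.46 (SE 0.12, 1.37-fold lower, edgeR adjusted p = 0.000655), and SM was the lower of the pair in 45 of 60 pairs. All 8 proliferation markers were lower in SM as well, at 375, 1173 and 2953 CPM in sum against 890.2, 1591 and 2651 CPM in OF, and their part in the differences of Rspo1 and Wnt10b was not tested. It passed in 2 comparisons whose groups did not overlap. In the coronal suture at E18.5 the SM libraries held 16.4, 11.6, 15.9, 15 and 12.2 CPM and the PA libraries 35.9, 55.3, 42.9, 33.2 and 38.3 CPM, a difference of -1.49 (SE 0.35, edgeR adjusted p = 0.00099). In the sagittal suture at E16.5 they held 17.7 to 23.8 and 37.6 to 52.4 CPM, a difference of -0.99 (SE 0.34, edgeR adjusted p = 0.0316), lost without replicate 1, 2, 4 or 5 (-0.92 to -1.01, edgeR adjusted p = 0.0774 to 0.112). In the frontal suture the difference was higher than in the other sutures by 0.88 (SE 0.28, edgeR adjusted p = 0.0467), and the frontal SM and FR libraries overlapped at both ages. That call was lost in 8 of the alternatives run and kept in 5. It was lost without replicate 1, 2, 4 or 5 (0.73 to 0.95, edgeR adjusted p = 0.102 to 0.183), with median-ratio scaling, total counts or filterByExpr (0.84 to 0.87, edgeR adjusted p = 0.0586 to 0.0648) and with limma-voom (0.90, adjusted p = 0.141). In the lambdoid suture at E18.5 SM less PA passed without replicate 3 (-1.48, edgeR adjusted p = 0.00274) and without the filter (-0.84, edgeR adjusted p = 0.0143). Coronal SM less FR at E18.5 passed in 3 alternatives (-0.86 to -1.08, adjusted p = 0.0197 to 0.0459 by edgeR or limma-voom), and that at E16.5 with limma-voom (-0.63, adjusted p = 0.0364).

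**Figure D3:**
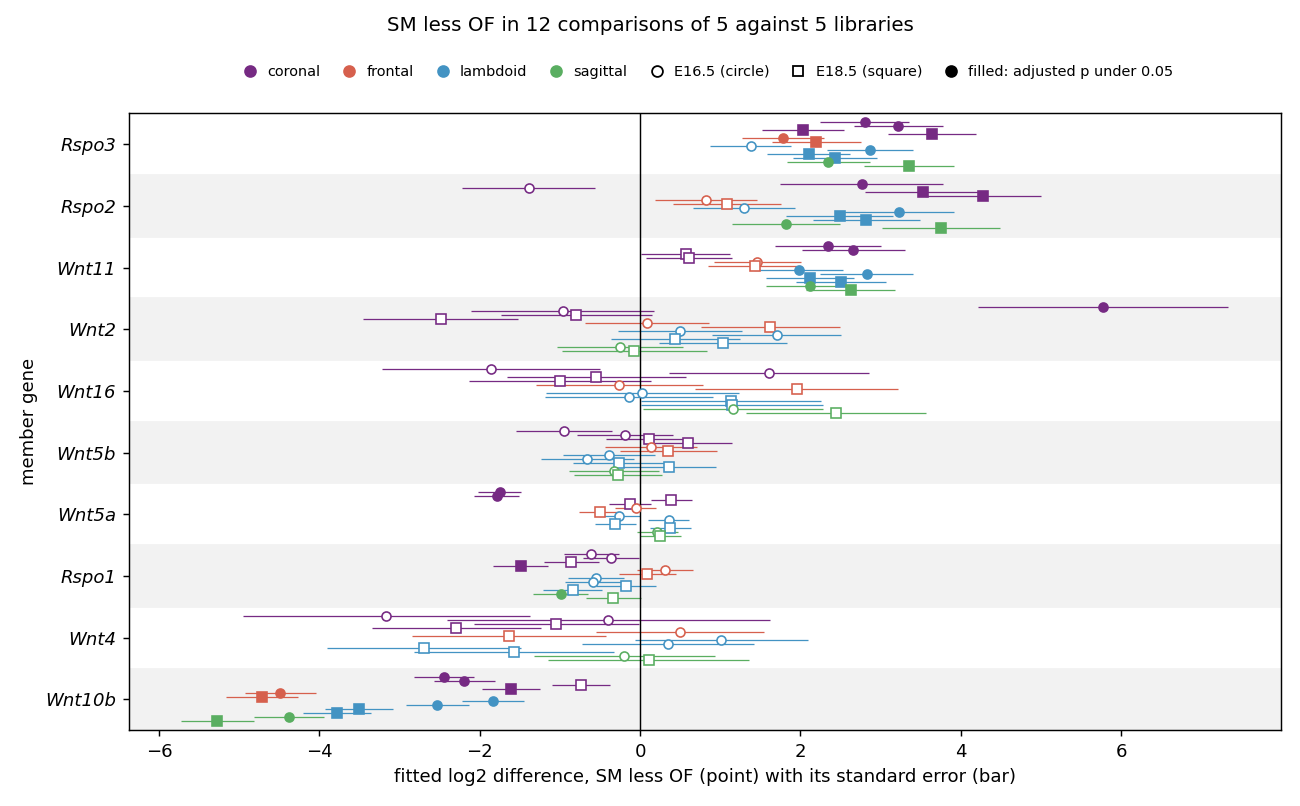
Fitted log2 difference (point) with its standard error (bar) of each member in 12 comparisons of SM with a front, coloured by suture, circles at E16.5 and squares at E18.5, filled where the adjusted p was under 0.05. The standard error was derived from the F statistic of the test. All 12 points of Rspo3 and Wnt11 lie above 0 and all 12 of Wnt10b below 0, and the 2 coronal points of Wnt10b at E18.5 are the nearest to 0.

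Counted by comparison, the members called were set against the share of all genes called. In the coronal suture at E16.5, 6 members passed in SM less FR (27.2% of all genes) and 4 in SM less PA (33.3%). At E18.5 these were 2 (3.53%) and 4 (18%). In the frontal suture 2 members, Wnt10b and Rspo3, passed at E16.5 (8.83%) and at E18.5 (11.3%). In the lambdoid suture 2 passed in SM less IP (12%) and 4 in SM less PA (24.1%) at E16.5, and 4 in SM less IP (20.4%) and 4 in SM less PA (24.9%) at E18.5. In the sagittal suture 5 passed at E16.5 (18.4%) and 4 at E18.5 (26.1%). The comparisons with 2 fronts share their SM libraries. With the coronal suture at E16.5 fitted by itself, the calls against FR of Wnt2, Wnt5a, Wnt11, Rspo2 and Rspo3 were lost (edgeR adjusted p = 0.0656 to 0.755), as were those of Wnt5a and Wnt11 against PA (edgeR adjusted p = 0.0512 and 0.382). The differences in this fit were 6.22, -1.78, 3.03, 2.31 and 2.79 against FR and -1.79 and 2.73 against PA, in the same order.

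By the main test no member passed for a change of its SM less OF difference between E16.5 and E18.5 (0.87% of all genes did). The nearest was Rspo2, with a change of 1.45 (95% interval 0.53 to 2.38, unadjusted p = 0.00322, edgeR adjusted p = 0.144), which passed without the filter on low counts (1.44, edgeR adjusted p = 0.0148) and with DESeq2 (1.49, adjusted p = 0.019). Against the other 3 sutures, 2 members passed in the coronal (20% of all genes), 2 in the frontal (6.34%), none in the lambdoid (1.91%) and 1 in the sagittal suture (4.59%), as given above for Wnt10b, Wnt5a and Rspo1. Between the 2 fronts of a suture, Wnt2 and Rspo2 passed in the coronal suture at E16.5 (9.11%). No member passed between the coronal fronts at E18.5 by the main test (6.17%) or between the lambdoid fronts at E16.5 (0.971%) or E18.5 (0.0152%). Single libraries and other settings moved some of these counts. Between the lambdoid fronts at E16.5, Rspo2 passed without the filter (1.93, edgeR adjusted p = 0.0247) and with DESeq2 (1.97, adjusted p = 0.0385), and Rspo3 without the filter (1.49, edgeR adjusted p = 0.00019). In the frontal suture against the others, Rspo2 passed in 3 alternatives (-1.57 to -1.62, adjusted p = 0.00793 to 0.0336 by edgeR or DESeq2). In the sagittal suture Wnt5a passed with DESeq2 (0.58, adjusted p = 0.0428) and with the second coronal libraries (0.53, edgeR adjusted p = 0.0347). In the coronal suture Wnt16 passed with the second libraries (-2.62, edgeR adjusted p = 0.0105). Wnt10b passed in the lambdoid suture against the others without replicate 1 (1.15, edgeR adjusted p = 0.0403) and without the filter (0.84, edgeR adjusted p = 0.0286). Between the coronal fronts at E16.5, Wnt4 passed without replicate 4 (5.16, edgeR adjusted p = 0.0264) and Wnt16 without replicate 5 (4.83, edgeR adjusted p = 0.0349), and with DESeq2 both passed (3.10 and 3.77, adjusted p = 0.0225 and 0.00305). Wnt16 passed there without the filter as well (3.48, edgeR adjusted p = 0.0405). At E18.5, Rspo3 passed there without replicate 5 (1.95, edgeR adjusted p = 0.0429) and without the litter block (1.68, edgeR adjusted p = 0.0151), and Wnt5a without replicate 1 (-0.69, edgeR adjusted p = 0.0465). Rspo3 passed there in 7 alternatives in all, among them DESeq2 (1.67, adjusted p = 0.0223) and median-ratio scaling (1.67, edgeR adjusted p = 0.0455). With the second coronal libraries Wnt5a (-0.999, edgeR adjusted p = 0.000493) and Wnt2 (-3.42, edgeR adjusted p = 0.0176) passed between these fronts, and with limma-voom Wnt10b did (-0.93, adjusted p = 0.00302).

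Between the ages, most calls of members were in the coronal suture, where the share of all genes called was the highest as well. In coronal SM, 5 members passed (34.8% of all genes). Rspo2 rose by 4.83 (SE 0.71, edgeR adjusted p = 2.11e-07), Wnt10b by 1.09 (SE 0.39, edgeR adjusted p = 0.0236), Wnt5b by 1.05 (SE 0.43, edgeR adjusted p = 0.0477) and Wnt5a by 0.79 (SE 0.26, edgeR adjusted p = 0.0121). Rspo1 fell by 1.43 on the log2 scale (SE 0.29, edgeR adjusted p = 8.91e-05), from 26.8 to 71.7 CPM at E16.5 to 11.6 to 16.4 CPM at E18.5. Of these, Wnt5a was lost without replicate 1 or 4 (0.25 and 0.64, edgeR adjusted p = 0.445 and 0.109), Wnt5b without replicate 1, 3 or 5 (0.66 to 1.05, edgeR adjusted p = 0.0811 to 0.328) and Wnt10b without replicate 4 or 5 (0.89 and 0.99, edgeR adjusted p = 0.126 and 0.0814). With the second coronal libraries Wnt5a was at -0.025 (edgeR adjusted p = 0.962) and Wnt5b at 0.83 (edgeR adjusted p = 0.145), and Wnt5b was lost also without the filter (1.09, edgeR adjusted p = 0.0701). Wnt4 passed in coronal SM with total counts (2.58, edgeR adjusted p = 0.0312) and without replicate 5 (3.04, edgeR adjusted p = 0.0316). In the other sutures no member passed in SM by the main test, where 3.82% of all genes passed in the frontal, 4.58% in the lambdoid and 1.74% in the sagittal suture. In the mean over sutures Rspo2 alone passed in SM by the main test, at 1.57 (SE 0.31, edgeR adjusted p = 9.75e-05, 15.9% of all genes). The coronal change, from a level near 0, is the largest part of that mean, since the changes of Rspo2 in SM of the frontal, lambdoid and sagittal sutures were -0.44, 0.62 and 1.27, of which none passed (edgeR adjusted p = 0.504 to 0.851). Wnt10b in lambdoid SM passed without replicate 3 (-1.78, edgeR adjusted p = 0.00982), Wnt5a in frontal SM without replicate 1 (-0.80, edgeR adjusted p = 0.0405) and with total counts (-0.93, edgeR adjusted p = 0.0252), and Wnt5b passed in the mean with the replicate number as a block, which joins different litters of the 2 ages (0.64, edgeR adjusted p = 0.0364), without replicate 2 (0.77, edgeR adjusted p = 0.0285) and with DESeq2 (0.57, adjusted p = 0.0402). The mean change of Rspo1 passed without replicate 3 (-0.62, edgeR adjusted p = 0.00176) and with the second coronal libraries (-0.45, edgeR adjusted p = 0.0331).

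In the fronts, summed per litter label, 3 members passed in the coronal suture (20.6% of all genes). Wnt11 rose by 2.01 (SE 0.39, edgeR adjusted p = 0.000105) and Rspo2 by 1.79 (SE 0.63, edgeR adjusted p = 0.0322), and Wnt5a fell by 1.03 on the log2 scale (SE 0.25, edgeR adjusted p = 0.00194). By the main test no member passed in the fronts of the frontal (8.43%), lambdoid (0.739%) or sagittal suture (2.66%). Under alternatives, Wnt10b passed in the sagittal fronts with limma-voom (0.96, adjusted p = 0.014), and Rspo3 with total counts (-1.26, edgeR adjusted p = 0.0386) and DESeq2 (-1.10, adjusted p = 0.0446). In the coronal fronts Rspo1 and Wnt2 passed with limma-voom (-0.64 and 2.55, adjusted p = 0.00142 and 0.0254). In the mean over sutures Wnt11 rose by 0.64 (SE 0.19, edgeR adjusted p = 0.0172) and Rspo3 fell by 0.54 on the log2 scale (SE 0.18, edgeR adjusted p = 0.0339), against 10.8% of all genes. Scaled to total counts the coronal change of Wnt5a did not pass (-0.64, edgeR adjusted p = 0.0594). With the second coronal libraries the coronal changes of Wnt11 and Wnt5a were 0.38 and -0.44 (edgeR adjusted p = 0.639 and 0.245), and the mean changes of Wnt11 and Rspo3 were 0.22 and -0.48 (edgeR adjusted p = 0.574 and 0.0576). Rspo2 in the coronal fronts was lost without replicate 3, 4 or 5 (0.37 without replicate 4, edgeR adjusted p = 0.745) with the replicate number as a block (1.16, edgeR adjusted p = 0.261) and with limma-voom (1.36, adjusted p = 0.188). The mean change of Wnt11 was lost without replicate 1, 3 or 5 (0.50 to 0.63, edgeR adjusted p = 0.0557 to 0.174) and that of Rspo3 without replicate 3, 4 or 5 (-0.44 to -0.54, edgeR adjusted p = 0.0672 to 0.172) or with limma-voom (-0.65, adjusted p = 0.128). Wnt10b passed in the mean with the replicate number as a block (0.56, edgeR adjusted p = 0.0259) without replicate 3 (0.62, edgeR adjusted p = 0.0224), with the second coronal libraries (0.63, edgeR adjusted p = 0.0183) and with limma-voom (0.56, adjusted p = 0.000613). The mean change of Wnt2 passed with the second coronal libraries (-1.18, edgeR adjusted p = 0.0241) and that of Wnt5a with limma-voom (-0.33, adjusted p = 0.0426). Litters and label dates of the 2 ages are different, and date cannot be told apart from age.

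The second coronal libraries bear on these changes. They carry the same sample labels as the first, and the sources used here do not say whether each is a repeat library of the same RNA or comes from a new capture. Their levels and those of the first libraries with the same 3 sample labels are given here as CPM of the total count, without further scaling. In coronal SM at E16.5, Wnt11 lay between 1.22 and 2.74 CPM in the first and between 13 and 17.3 CPM in the second libraries. In the FR of that age the first libraries held 0, 0.0928 and 3.15 CPM (lowest, median, highest) and the second 3.00, 3.06 and 6.95 CPM. Wnt11 levels were thus higher in the second libraries. In them all 3 SM libraries lay above all fronts of that age, while 1 FR library of the first set lay above all 3 SM libraries. Rspo2 stayed at 0 to 0.492 CPM in the second SM libraries at E16.5 and lay at 6.50 to 21.0 CPM at E18.5, against 0 to 1.15 and 13 to 25.1 CPM in the first. Wnt10b in SM was at 2.23 to 10.0 CPM at E16.5 in the second libraries, below both fronts except for an overlap with the lowest PA library at 10.0 CPM.

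The complete sutures at E18.5, 4 libraries per suture, hold SM, fronts and adjoining tissue together. Their labels call them controls for normalization and give all 4 of a suture the same replicate number in 4 sets, so that they may be libraries of 1 sample, and their ranges may then be technical. Rspo3 in them lay at 9.11 to 15.2 CPM of the total count in the coronal suture and at 28.4 to 55.4 CPM in the other 3. In the frontal suture the complete libraries, at 36.2 to 55.4 CPM, were above both captured SM (8.95 to 22.6 CPM) and captured FR (0.631 to 5.68 CPM) on the same scale. Rspo1 was lower in the complete lambdoid suture, at 1.29 to 4.13 CPM, than in captured lambdoid SM (5.89 to 50.3 CPM) or OF (10.2 to 46.9 CPM). It was lower also in the complete coronal suture (5.87 to 11.1 CPM) than in coronal SM (11.3 to 18.1 CPM) or OF (15.5 to 43.4 CPM). In the complete sagittal suture it lay at 6.53 to 11.7 CPM, below all captured libraries, which held at least 15.2 CPM. In the frontal suture the ranges overlapped, with medians of 9.32 CPM in the complete libraries, 13.4 CPM in SM and 13.1 CPM in FR. Wnt10b in the complete frontal suture, at 6.23 to 7.22 CPM, lay between SM (0.267 to 1.76 CPM) and FR (14.5 to 31.0 CPM).

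The partners of the ligands are described in the same mean contrast, in which 54.9% of all genes passed, the share to set beside the counts of these short lists, and nothing particular to a list is called from them. Of the 13 other genes of the 2 families, Rspo4 included, 5 passed the filter on low counts, and of these 1 was higher in SM and 3 were lower. Wnt10a, a close relative of Wnt10b, lay at 0, 0.0208 and 3.29 CPM in SM and 0.424, 3.95 and 35.1 CPM in OF, a difference of -5.0 (SE 0.33, edgeR adjusted p = 1.06e-20), with 20 of the 40 SM libraries at 0. Wnt7b, a ligand known for bone formation, lay at 0, 0.582 and 5.32 CPM in SM and 0.156, 6.14 and 15.2 CPM in OF, a difference of -2.89 (SE 0.23, edgeR adjusted p = 4.77e-17). Of the 16 Frizzled receptors and co-receptors, 6 were higher and 5 lower in SM, with a median of 0.07. The co-receptor Lrp6 was higher in SM by 0.63 (SE 0.04, edgeR adjusted p = 4.33e-19), at medians of 349.6 and 264 CPM, and the receptor Fzd2 by 0.74 (SE 0.06, edgeR adjusted p = 5.23e-18), at medians of 57.1 and 33.2 CPM.

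All 5 genes of the R-spondin receptors and their E3 ligases passed, 1 higher and 4 lower in SM, with a median of -0.83. Lgr5, a receptor of R-spondins, lay at 3.39, 18.7 and 111 CPM in SM and 0, 1.21 and 12.2 CPM in OF, a difference of 3.77 (SE 0.21, edgeR adjusted p = 8.35e-24). Its relative Lgr4 lay at 22.4, 30.2 and 74.0 CPM in SM and 42.1, 54.8 and 128 CPM in OF, a difference of -0.83 (SE 0.06, edgeR adjusted p = 3.17e-20), and Lgr6 differed by -0.40 (SE 0.16, edgeR adjusted p = 0.0325). Of the E3 ligases, Znrf3 differed by -0.85 (SE 0.05, edgeR adjusted p = 6.21e-21), at medians of 36.1 CPM in SM and 72.1 CPM in OF. Rnf43 differed by -2.92 (SE 0.29, edgeR adjusted p = 1.65e-13), at medians of 0.429 and 3.05 CPM. Lgr5 was thus higher in the region where Rspo2 and Rspo3 were higher. Lgr4, Znrf3 and Rnf43 were higher in the other region, as was Rspo1. Whether ligand and receptor go together was not tested.

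Of the 3 genes of Wnt secretion and release, 1 was higher and 1 lower. Wls, the carrier of Wnts to the cell surface, differed by 0.32 (SE 0.05, edgeR adjusted p = 3.30e-08), at medians of 74.9 and 56.8 CPM, and Notum, which inactivates Wnts by removing their lipid, by -1.62 (SE 0.32, edgeR adjusted p = 1.46e-05), at medians of 0.192 and 0.724 CPM. Porcn, which adds the lipid, differed by 0.23 (95% interval 0.02 to 0.44, edgeR adjusted p = 0.0599). Of 7 genes that beta-catenin is known to induce, 6 were tested, 1 was higher and 3 were lower in SM. Tcf7, itself a TCF factor, lay at 0, 12.5 and 130 CPM in SM and 97.1, 265 and 465 CPM in OF, a difference of -4.04 (SE 0.15, edgeR adjusted p = 2.98e-33). Apcdd1, an inhibitor at the cell surface, differed by -0.86 (SE 0.08, edgeR adjusted p = 1.36e-14) and Lef1 by -0.44 (SE 0.11, edgeR adjusted p = 0.000369). Axin2, a widely used readout of the pathway, lay at medians of 29.7 CPM in SM and 30.02 CPM in OF, with a difference of 0.06 (95% interval -0.10 to 0.22, edgeR adjusted p = 0.527).

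Of 12 secreted antagonists, 9 were tested, 3 were higher and 4 lower in SM. Dkk1, which blocks LRP5 and LRP6, lay at 0, 1.54 and 10.6 CPM in SM and 2.87, 48.9 and 160.1 CPM in OF, a difference of -5.20 (SE 0.16, edgeR adjusted p = 4.56e-36). Sfrp2, a secreted Frizzled-related protein, lay at 73.0, 1765 and 4160 CPM in SM and 24, 239 and 903 CPM in OF, a difference of 2.42 (SE 0.08, edgeR adjusted p = 1.59e-34). Dkk1 thus fell on the side of Wnt10b, and Sfrp2 on the side of Rspo3.

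**Figure D4:**
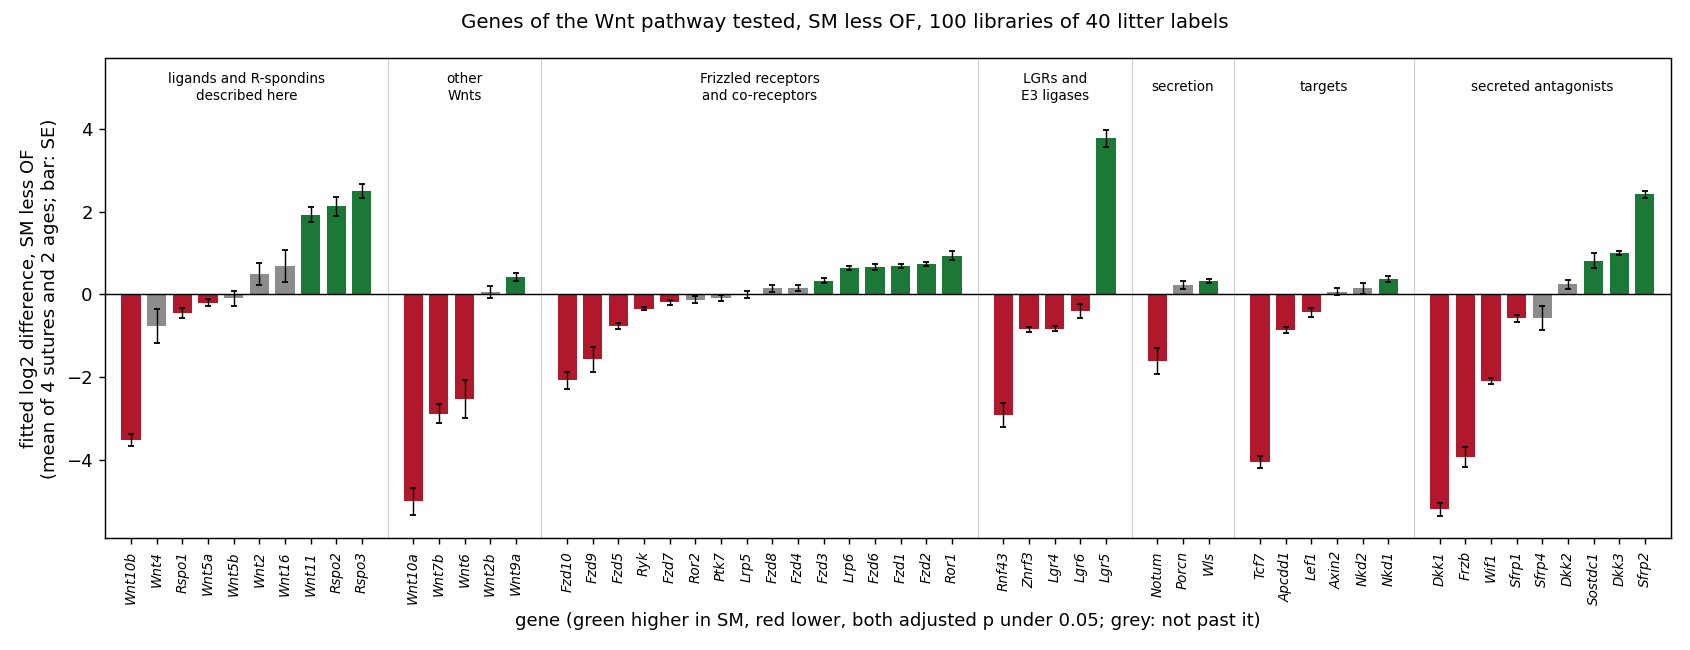
Fitted log2 difference of SM less OF, mean of 4 sutures and 2 ages, with its standard error, for every gene of the fixed lists that passed the filter. The standard error was derived from the F statistic of the test. Green bars were higher and red bars lower in SM at an adjusted p under 0.05, grey bars did not pass. The bars reach from -5.20 for Dkk1 to 3.77 for Lgr5.

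In the coronal single cells, counted as unique molecular identifiers (UMIs) per cluster of cells, 803 cells at E16.5 and 3989 at E18.5 were kept. The ages are those of the sample labels, while the names of all 4 deposited sets of files carry the code of the earlier age. Median depth was 2501 and 2121 UMIs per cell in the E16.5 libraries and 18476 and 7131 in those at E18.5. The version of the library kit and the sequencer differed between the ages as well. The cells came from pooled sutures whose outer and inner membranes had been removed as far as possible, so that the share of cells from these layers depends on the dissection. Barcodes shared between the 2 libraries of an age numbered 1 at E16.5 and 5 at E18.5. With 2 pooled libraries per age, no test was run between clusters or ages, and the intervals given cover counting error only. Of the members, 8 had at least 10 UMIs at E16.5 and all 10 had them at E18.5.

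At E18.5, among clusters of at least 20 cells, Wnt2, Rspo2, Rspo3, Wnt11 and Wnt5a were highest in the cluster called ectocranial mesenchyme-like, 589 cells named from a list of Igfbp3, Col8a1, Lmx1b and Abcc9. Wnt2 had 1373 of its 1675 UMIs there (82.0%), at 103 CPM (exact Poisson 95% interval 97.9 to 109), with a UMI in 69.6% of the cells. In the 2 libraries this cluster held 103 and 108 CPM of Wnt2. In the macrophage-like cluster Wnt2 stood at 3.41 CPM, with a UMI in 5.99% of 334 cells. Whether these UMIs came from those cells was not tested. Rspo2 had 178 of 227 UMIs (78.4%) in the ectocranial mesenchyme-like cluster, at 13.4 CPM (11.5 to 15.5), and Rspo3 856 of 1565, at 64.4 CPM (60.1 to 68.8). Rspo3 was next highest, at 32.6 CPM, in an unnamed cluster led by Gpha2 and Scara5. Wnt11 reached 12.9 CPM and Wnt5a 26.7 CPM in the ectocranial mesenchyme-like cluster, with 16.7 CPM of Wnt5a in 1 of the 2 osteoblast-like clusters.

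The other members had other clusters at the top. Wnt10b was highest, at 7.90 CPM (5.85 to 10.5, 49 UMIs), in an unnamed cluster of 416 cells led by Tnn and Lrrc15, and reached 2.88 CPM in an osteoblast-like cluster. Rspo1 was highest in the same unnamed cluster, at 24 CPM, with 22.4 CPM in the proliferating-like and 20.2 CPM in the suture mesenchyme-like cluster. Wnt5b reached 39.2 CPM (25.8 to 57.1, 27 UMIs) in the 56 pericyte and smooth muscle-like cells. That value rested on the first library (52.8 CPM, 22 UMIs), since in the second it was 18.4 CPM (5 UMIs), below the proliferating-like cells at 25.6 CPM. Wnt5b reached 25.2 CPM in the cluster led by Tnn and Lrrc15 and 24 CPM in the suture mesenchyme-like cluster. Wnt4, with 253 UMIs, stood at 5.96 CPM on 10 UMIs in the endothelial-like cluster, where the first library held 2.26 CPM (3 UMIs) and the second 19.96 CPM (7 UMIs), and at 2.52 CPM in the macrophage-like cells. Its order of clusters is not resolved by these counts. Wnt16 had 60 UMIs in all, 29 of them in ectocranial mesenchyme-like cells.

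At E16.5 the cells of 1 library decided the pattern. Wnt2 had 218 UMIs, 214 in the first and 4 in the second library. Of these, 165 lay in a hypodermis-like cluster of 123 cells led by Clec3b and Pi16, at 538 CPM (459 to 627), and 122 of these cells came from the first library. Rspo3 had 82 of its 132 UMIs there, at 268 CPM, Wnt11 26 of 54 and Wnt10b 20 of 27. No cluster at E18.5 was named hypodermis-like, so the clusters highest in a member cannot be set against each other between the ages. A cluster led by Cxcl14 and Col8a1, which had 2 ectocranial mesenchyme markers among its leading genes and was left unnamed because only those 2 of the list were detected, with 70 cells from the first and 20 from the second library, held the next highest Wnt2, at 179 CPM. In that cluster Wnt2 stood at 207 CPM in the first and 42.0 CPM in the second library, on 49 and 2 UMIs, and Rspo3 at 80.1 and 84.0 CPM, on 19 and 4 UMIs. None of the 113 macrophage-like cells had a UMI of any member. Without the first library, 4 UMIs of Wnt2, 18 of Rspo3, 9 of Wnt11 and none of Rspo2 remain. Wnt2 was thus among the most abundant members in coronal single cells and low in the captured coronal groups, which held at most 2.79 CPM in the first libraries and 6.67 CPM of the total count in the second. In the second cell library at E16.5, Wnt2 stood at 4.76 CPM over all cells. The tissue taken by the 2 procedures differs, and the part of the layers outside the suture was not tested.

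**Figure D5:**
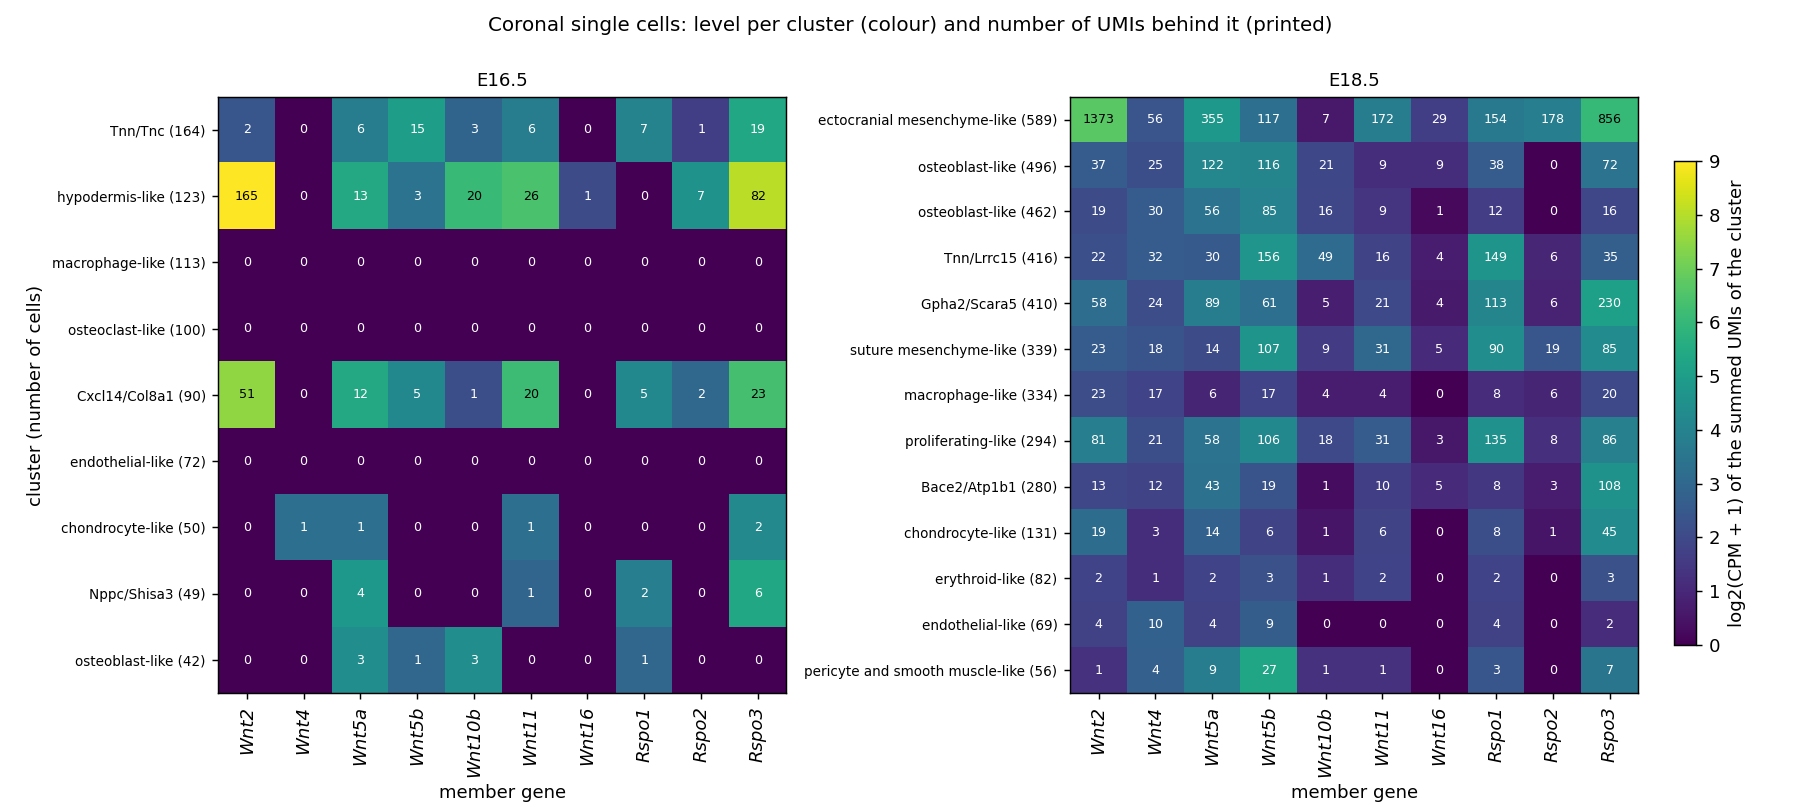
Level of each member per cluster of coronal single cells at E16.5 (left) and E18.5 (right), as colour on the scale log2(CPM + 1) of summed UMIs, with the number of UMIs printed and the number of cells in brackets. Of Wnt2, 165 UMIs at E16.5 lie in hypodermis-like cells and 1373 at E18.5 in ectocranial mesenchyme-like ones. No cluster at E18.5 was named hypodermis-like.

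Across the 20 captured groups, the genes with the group means most like a member's were named by Pearson's r of mean log2(CPM + 0.5) over all tested genes, as a description in which groups share litters, depth and label date. Wnt10b was most like Gramd2 (r = 0.979) and Ptprz1 (0.976), Wnt11 like Zfp575 (0.966) and Ccdc136 (0.963), and Wnt2 like Mfap5 (0.958), one of the hypodermis markers, and Col6a6 (0.943). Rspo2 was most like Cadps2 (0.941) and Medag (0.911), Rspo1 like Tbpl1 (0.898) and Rbmx (0.878). Rspo3 was most like Gm20276 (0.956), which lies at chr10:29490774-29493421 between exons of Rspo3 on the same strand, so that reads of unspliced Rspo3 and of Gm20276 cannot be told apart, and 4930402H24Rik (0.910). For Wnt5a these were Ust (0.938) and Carm1 (0.851), for Wnt5b Myo16 (0.883) and Lpgat1 (0.876), for Wnt4 9530027J09Rik (0.779) and Inpp5b (0.728), and for Wnt16 Rbfox2 (0.718) and Spata33 (0.713). The likeness was weakest for Wnt4 and Wnt16, the members with the lowest levels.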

How the data were processed

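Bulk libraries were made by the authors from laser-captured tissue or complete sutures with Ovation RNA-Seq System V2 amplification and Nextera XT, without molecular identifiers. Reads were trimmed with cutadapt, aligned with STAR 2.5.3a to mm10 and counted per gene without strand with featureCounts 1.6.4, and the deposited counts are whole numbers per gene. The single-cell files hold the authors' deposited counts of UMIs per gene and barcode (10x 3' libraries). A table of log2 ratios deposited by the authors holds their own comparisons and was not used. Columns of other samples numbered 0.

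From the counts, the 19768 genes that reached 1 CPM in more than 10% of 100 first libraries were kept, scaled by TMM and tested two-sided with edgeR 4.0.16 (R 4.3.3), with 40 litter labels as blocks and 12 terms for the fronts. The dispersion trend was estimated from every 5th gene. Standard errors of log2 differences were derived from the F statistic, as described above, and grow without limit where F is near 0. Ages were compared in a fit without the block, on SM and on fronts summed per litter label. The pairing comes from the litter label: deviations of same-label libraries correlated at a median of 0.101 (80 pairs) against 0.0527 for 320 other pairs. Cells with over 800 genes and within 3 median absolute deviations were clustered with scanpy 1.11.5 (resolution 0.8) and named X-like where at least 2 of their 10 leading genes were markers of 1 list, more than of all other lists, and at least 3 markers of that list were detected in 20% of the cells. That number was set after the clusters were seen, and no doublet caller was run. Poisson intervals and floors cover counting error only. Members and gene lists were chosen with earlier results of these data known. The genes named beside the members are the 2 with the smallest adjusted p in each list, a set of receptors, secretion genes and targets named by role, and the 2 genes most like each member. The 5 replicates of a group carry separate litter labels, of which the sources used here do not say whether each stands for a litter or an embryo, and p-values measure the spread between these samples. Many labels of a group share a date and stem and differ only in their last number, so that replicates may be littermates. Tested on counts simulated for the 19768 genes, the fit of the mean of SM less OF called 75 of 100 genes changed 2-fold and 100 of 100 changed 4-fold, with 6 false calls, and the single comparison of SM with PA in the sagittal suture at E18.5 called 26 and 56 of 100, with 4. The fit of the mean age change of SM called 69 and 97 of 100, with 19 false calls. The simulated counts took their spread from the fitted trend alone, had no litter effect, and only a small part of the genes was changed. The shares found and the false calls therefore need not carry over to the real data. Alternatives were other scalings, filters and tools, leaving out each replicate, the second coronal libraries and cell filters.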

Additional observations from a re-analysis of the deposited data

Results flagged for a closer look

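Of the 200 groups of 5 libraries (10 genes in 20 groups), 194 had a library with at least 10 counts and were examined for a library far from the other 4, and 23 were marked. Chance marks about 1 in 20 groups. Where a gene is near its floor the mark rests on few counts. The value of the library that stood apart is given in CPM, beside the median of its group.

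For Wnt10b these were replicate 3 of the coronal FR at E16.5 (65.5, median 21.8), replicate 3 of the lambdoid SM at E18.5 (7.07, median 1.22) and replicate 1 of the sagittal SM at E18.5 (3.38, median 0.781). Replicate 3 of the lambdoid SM at E18.5 also stood apart for Rspo1 (45.1, median 11.0), and its summed osteoblast markers, 303 CPM, were the highest of its group (32.3 to 165 CPM in the other 4). For Rspo1 the others were replicate 5 of the coronal SM at E16.5 (71.7, median 32.4), replicate 5 of the frontal FR at E18.5 (22.7, median 12) and replicate 4 of the sagittal PA at E18.5 (35.6, median 25.2). For Wnt11 they were replicate 4 of the coronal SM at E16.5 (10.7, median 2.40), replicate 5 of the lambdoid SM at E18.5 (17.4, median 21.6) and replicate 3 of the sagittal PA at E16.5 (11.3, median 5.49). For Rspo2 it was replicate 4 of the coronal FR at E18.5 (9.67, median 1.31) and for Rspo3 replicate 4 of the frontal FR at E18.5 (0.594, median 4.10).

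For Wnt4 these were replicate 3 of the coronal FR at E16.5 (13, median 0.151), replicate 4 of the coronal PA at E16.5 (2.35, median 0), replicate 5 of the coronal FR at E18.5 (2.13, median 0.633), replicate 5 of the frontal FR at E18.5 (3.28, median 0.560) and replicate 4 of the lambdoid PA at E18.5 (2.93, median 0.275). For Wnt16 they were replicate 1 of the coronal SM at E16.5 (6.92, median 0.213) and replicate 5 of the lambdoid IP at E18.5 (1.78, median 0.467). For Wnt2 it was replicate 2 of the lambdoid PA at E18.5 (5.39, median 1.74), and for Wnt5b replicate 5 of the lambdoid IP at E16.5 (6.43, median 2.20). For Wnt5a they were replicate 3 of the frontal FR at E16.5 (21.4, median 28.4) and replicate 2 of the frontal SM at E18.5 (23.0, median 14.5).

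The SM less OF difference of a suture differed from that of the other 3 by edgeR's test for Wnt10b in the coronal (2.37), frontal (-1.44) and sagittal suture (-1.74), for Wnt5a in the coronal (-0.82) and for Rspo1 in the frontal suture (0.88). Each difference is taken within a suture, and suture and the date in the litter label cannot be told apart for most libraries.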

How the results depend on the processing

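Over 320 results (each member in 32 contrasts), 4290 values were recomputed under other scalings, filters, tools and sets of libraries. Of these, 4102 kept their side of the threshold, 197 of them with another sign in a difference called in neither setting. A further 79 lost a call, 106 gained one and 3 were called in one setting and had the other sign in the other. The mean differences of Wnt10b, Rspo3, Rspo2, Wnt11 and Rspo1 kept their call under every alternative run. The counts of members called in the 12 comparisons (43, and 39 to 42 with 1 replicate left out) and in the mean (6, and 5 to 7) stayed within 1.5 times under all of them.

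Of the smaller counts, that of members whose SM less OF difference changed with age went from 0 to 1 without the filter on low counts and with DESeq2. That gene was Rspo2 (1.44, edgeR adjusted p = 0.0148, and 1.49, DESeq2 adjusted p = 0.019), and the count was 0 without each replicate. The count of suture differences went from 5 to 3 with limma-voom and to 8 with the second coronal libraries, and ran from 4 to 5 without each replicate. Calls between fronts went from 2 to 6 without the filter and with DESeq2 and to 4 with limma-voom, and ran from 1 to 4 without each replicate. The mean age change of SM called 1 member, and 2 with DESeq2, with the second coronal libraries and with the replicate block, running from 1 to 2 without each replicate. That of the fronts called 2, and 0 to 2 without each replicate. The cause of these shifts was not tested. For the counts of members under other settings in this section, the share of all genes called in that setting is not given. A shift of the members therefore cannot be told apart from one over all genes.

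The values that reversed were the mean of Wnt5a without the coronal suture at E16.5 (0.054) and, in the same setting, which was added after the data were seen, that of the co-receptor Lrp5 (0.16, edgeR adjusted p = 0.0159, from -0.01). The others were the change of Wnt5a with age in coronal SM with the second libraries (-0.025) and that of Wnt4 in the coronal fronts with limma-voom (2.15, adjusted p = 0.0222, from -0.50). The cause was not tested.

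Without the replicate block, the 12 comparisons called 45, the mean 7, the suture differences 6 and the fronts 3. With the replicate block, the age change of the fronts called 3. The calls that the block changed are given beside the results, and there were 2 more, Wnt16 in coronal SM less PA at E16.5 (2.40, edgeR adjusted p = 0.0445 without it) and Wnt4 in the coronal suture against the others (-2.20, edgeR adjusted p = 0.0328 without it). It changed no other call.

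Scaling to total counts moved the median of all genes by 0.01 to 0.29 on the log2 scale over the 12 comparisons and by 0.36 and 0.38 in the coronal age changes of SM and of the fronts. Median-ratio scaling moved it by 0.01 to 0.14 in the 12 comparisons.

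Wnt4 and Wnt16 have the fewest counts, and detection at their level was not tested. For Rspo2 in the coronal suture at E16.5 leaving out 1 replicate decides a call. For Wnt2 the calls there were kept without each replicate and lost with the second coronal libraries. In the cells at E16.5, few UMIs per member and 1 library that holds most of them limit the order of clusters. Keeping cells with over 1000 genes left 7 members with at least 10 UMIs at E16.5 against 8.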
